A study of Mus musculus with 2 samples.

Results

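The endothelin and angiotensin systems are the vasoconstrictor pathways of the lung circulation, and 6 of their genes were followed here across lung cell types in normoxia and after chronic hypoxia. The genes were taken by symbol from the count matrices, as 6 of the 31053 genes listed: the ligand precursor *Edn1*, the converting enzyme *Ece1*, the endothelin receptors *Ednra* and *Ednrb*, the angiotensin-converting enzyme *Ace*, and the angiotensin receptor *Agtr1a*. All 6 identifiers in the matrices match protein-coding genes of the GENCODE annotation of GRCm38, the assembly also called mm10. *Edn1* lies at chr13:42301476-42307990 and *Agtr1a* at chr13:30336441-30382867, both on the plus strand. *Ece1* (chr4:137862237-137965229) and *Ace* (chr11:105967945-105989964) are also on the plus strand, whereas *Ednra* (chr8:77663031-77724464) and *Ednrb* (chr14:103814625-103844402) are on the minus strand.

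Lungs came from C57/B6 mice between 2 and 4 months old, kept in normoxia or exposed to hypoxia for 3 weeks, with 1 library per condition. The dissociated cells of both libraries were depleted with beads against CD45, the leukocyte surface protein, and CD326, the epithelial adhesion molecule, before capture by the 10x Chromium 3′ method. The hypoxia cells are described as coming from 3 wild-type animals, which the deposited library does not tell apart, and no number of animals is given for the normoxia library. With 1 library per condition no test was possible, so ratios between hypoxia and normoxia compare 2 libraries, and all intervals in the text are 95% intervals that cover counting error only.

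Endothelin-1 is made as a precursor that furin-type proteases and then the membrane protease ECE1 cut to the active peptide. Receptor A on smooth muscle and pericytes drives contraction through Gq proteins, while receptor B on endothelial cells (ECs) releases nitric oxide and prostacyclin and clears endothelin-1 from the circulation, a task for which the lung is known. ACE on the luminal side of the lung capillary bed converts angiotensin I to angiotensin II, which acts on contractile cells through the receptor encoded by *Agtr1a* in the mouse. Endothelin-1 is also a textbook hypoxia-responsive gene of ECs, and its receptors are drug targets in pulmonary hypertension.

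The regulatory sequence around the start sites was read from the RefSeq promoter windows of GRCm38.p6, which span 250 bases before to 50 bases after each start and cover 5 of the 6 genes in 9 windows. Letters of the hypoxia-inducible factor (HIF) motif, ACGTG or GCGTG on either strand, are present in 43.8% of the 32851 windows of the whole table. They were found in the *Edn1* window, in the *Ednrb* window and in 3 of the 4 *Ece1* windows, but in neither *Ace* window and not in the *Ednra* window. The *Ece1* windows chr4:137861987-137862286 and chr4:137862030-137862329 overlap, and the 1 match of each is the same stretch of the genome. The AP-1 letters (TGACTCA or its variant TGACTAA, on either strand) are present in 7.38% of all windows and, among these genes, were found for *Edn1*. The stretches below show HIF letters of 3 genes and the 70 bases before an *Ace* start, which have none. The stretches lie at different distances from the starts. A second *Ednrb* match, at base 32 counted from the start, is not in its stretch. All stretches are written 5′ to 3′ on the strand of the gene, with HIF and AP-1 letters in capitals. A match describes letters in a window and does not show a binding site.
Edn1, bases 18 to 45 counted from the start, chr13:42301493-42301520, plus strand: gctgCACGTtgcctgtgggTGACTAAtc
Ece1, 95 to 26 bases before the start of the window with the most HIF letters, chr4:137913463-137913532, plus strand: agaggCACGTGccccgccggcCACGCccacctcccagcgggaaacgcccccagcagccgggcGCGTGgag
Ednrb, 110 to 51 bases before the start, chr14:103843752-103843811, minus strand: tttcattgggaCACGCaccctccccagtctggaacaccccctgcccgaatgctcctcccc
Ace, 70 bases before the start of its upstream window, chr11:105967878-105967947, plus strand: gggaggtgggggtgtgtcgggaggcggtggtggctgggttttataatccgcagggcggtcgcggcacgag

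After filtering on detected genes and mitochondrial counts, 1348 normoxia and 689 hypoxia cells remained, with 5173361 and 2294966 unique molecular identifiers (UMIs, each counting 1 captured transcript) and medians of 3453 and 2224 UMIs per cell. The libraries shared 1 cell barcode before filtering and none after it. The mitochondrial limit of 5% was exceeded by 37.6% of normoxia and 13.2% of hypoxia cells. The depletion left *Ptprc* (CD45) at 55 and 5 UMIs and *Epcam* (CD326) at 65 and 16 UMIs in the kept cells of normoxia and hypoxia. EC-like cells made up 852 normoxia and 578 hypoxia cells and carried 8531 and 8871 UMIs per 1000000 UMIs (CPM) of *Cdh5*, *Pecam1*, *Cldn5* and *Egfl7* together. Mural cells were scarce among the kept cells: the pericyte-like cluster held 22 normoxia cells and 1 hypoxia cell, and no cluster was named smooth muscle. The cluster called by its leading gene *Hhip*, with 16 normoxia cells and 0 hypoxia cells, had smooth muscle as its best marker list. It had 8 of the 11 smooth muscle markers in at least 25% of its cells. Together, 18 immediate-early and dissociation genes stood at 28212 CPM in normoxia against 11679 CPM in hypoxia EC-like cells, and 17 of the 18 genes were lower in hypoxia.

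EC-like cells were divided by marker UMIs into general capillary cells (615 normoxia and 416 hypoxia), aerocytes (124 and 86), which are the large capillary cells of the gas-exchange surface, and arterial (18 and 23), venous (61 and 22) and lymphatic (14 and 3) cells. None of the 6 genes, nor any other gene of these pathways, was used to cluster or to divide the cells. Of the 1241 capillary cells, 27 lay near the cut between the aerocyte and general capillary lists.

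The 6 genes fell into 3 patterns of cell types. *Edn1*, *Ece1* and *Ace* were EC transcripts with different weights on the EC subtypes, *Ednrb* was a transcript of aerocytes, and *Ednra* and *Agtr1a* were transcripts of pericytes and, for *Ednra*, fibroblasts. The general capillary cells held 73.7% of the *Edn1* UMIs of the normoxia library and 77.6% of those of the hypoxia library. They carried 45.4% and 61.1% of all UMIs. The arterial cells held 8.20% and 15.6% of the *Edn1* UMIs on 1.85% and 5.88% of all UMIs. The aerocytes held 1300 of the 1369 *Ednrb* UMIs in normoxia and 410 of the 431 in hypoxia, while they carried 13.5% and 16.6% of all UMIs. The pericyte-like and fibroblast-like cells of normoxia held 50 and 259 of the 345 *Ednra* UMIs, while they carried 2.33% and 16.2% of all UMIs.

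**Figure D1:**
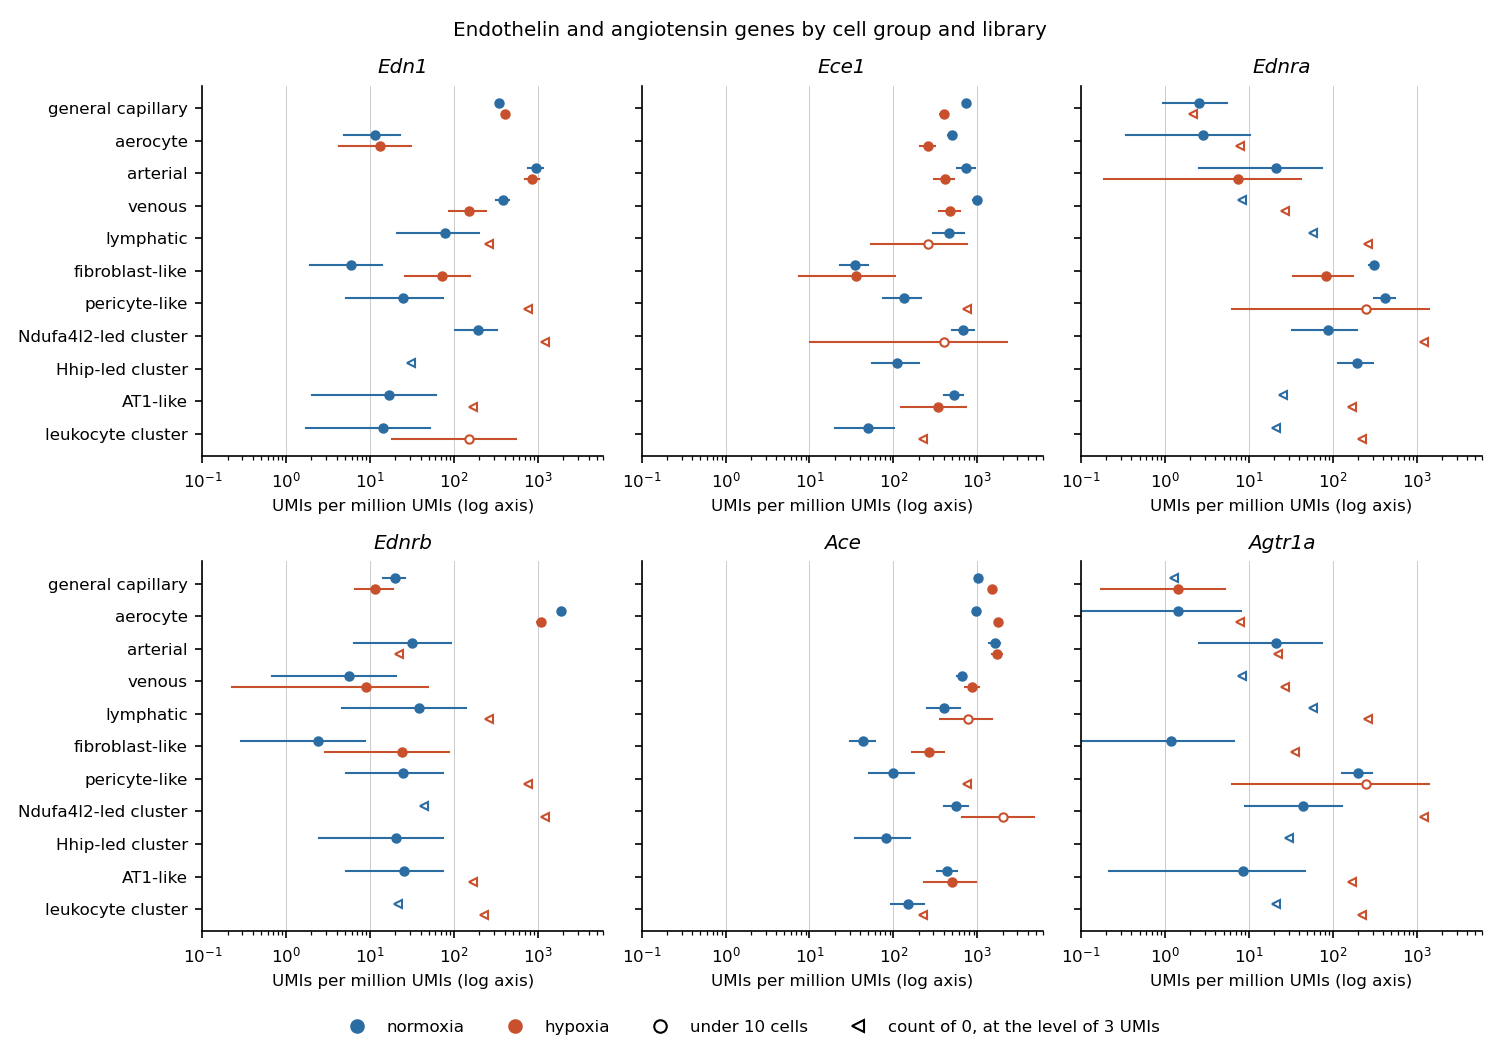
Level of each of the 6 genes in CPM (log axis) by cell group and library, with exact Poisson 95% intervals as lines (clipped at the left edge of the axis); open circles are groups of under 10 cells and open triangles mark a count of 0 at the level 3 UMIs would give. *Ednrb* stands at 1862 CPM in normoxia and 1077 CPM in hypoxia aerocytes and below 40 CPM in the other EC subtypes, and among groups of at least 10 cells *Ednra* and *Agtr1a* are highest in the pericyte-like cells of normoxia.

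*Edn1*, the precursor of endothelin-1, was highest in the cells of the arterial gate. Its level there was 939 CPM in normoxia (interval 755 to 1154) and 845 CPM in hypoxia (697 to 1015). General capillary cells had 345 CPM (321 to 369) and 404 CPM (371 to 439). The arterial level was 2.72 times the general capillary level in normoxia (2.17 to 3.39) and 2.09 times in hypoxia (1.70 to 2.56). Venous cells had 381 CPM in normoxia (320 to 450), which did not differ from the general capillary level beyond counting error, but 151 CPM in hypoxia (87.9 to 242), which was 0.374 times the general capillary level (0.216 to 0.604).

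Aerocytes were nearly free of *Edn1*. They held 8 UMIs in 124 normoxia cells and 5 UMIs in 86 hypoxia cells, or 11.5 and 13.1 CPM, close to 0.033 of the general capillary level in both libraries (0.0333 and 0.0325). After each cell was thinned to 1000 UMIs, 0 of 111 normoxia and 3 of 60 hypoxia aerocytes kept an *Edn1* UMI. The ligand and receptor B were thus found in different capillary cells. Lymphatic cells had 76.9 CPM in normoxia (4 UMIs) and no UMI in 3 hypoxia cells.

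Within a subtype *Edn1* was concentrated in a minority of cells. The 62 of 615 general capillary cells of normoxia with the most *Edn1* held 53.8% of its UMIs, and the 42 highest of the 416 hypoxia cells held 52.6%. The same measure was 30.7% and 39.4% for *Ece1* and 31.5% and 32.2% for *Ace*. This measure was taken before thinning and also depends on how many UMIs a gene has. In normoxia *Edn1* had 809 UMIs, against 1699 of *Ece1* and 2416 of *Ace*. In hypoxia it had 566, against 554 and 2115. A UMI was found in 46.0% of normoxia and 42.1% of hypoxia general capillary cells before thinning, at medians of 3668 and 2700 UMIs per cell, and in 22.1% (18.8 to 25.6) and 27.8% (23.2 to 32.8) after it. In fibroblast-like cells, which should lack the transcript, the shares were 2.07% and 8.82% at medians of 3409 and 1702 UMIs, and 2 of 139 and 2 of 25 cells had a UMI after thinning.

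Between the libraries *Edn1* differed little in EC-like cells as a whole. Normoxia cells were at 294 CPM (277 to 313) and hypoxia cells at 341 CPM (317 to 367), which gives a ratio of 1.16 (1.05 to 1.28). General capillary cells gave 1.17 (1.05 to 1.31), or 1.07 with an interval of 0.965 to 1.19 that includes 1 when taken by named clusters, arterial cells 0.901 (0.677 to 1.20) and venous cells 0.397 (0.224 to 0.658). The venous difference rests on 137 UMIs in 61 normoxia cells and 17 UMIs in 22 hypoxia cells. Of these UMIs, 7 normoxia cells held 73 and 3 hypoxia cells held 11. After thinning, 15 of 61 normoxia venous cells kept an *Edn1* UMI (24.6%, interval 14.5 to 37.3). In hypoxia 3 of 22 did (13.6%, interval 2.91 to 34.9), and the intervals of these shares overlap. The venous ratio was 0.406 with venous cells taken as a cluster and 0.489 with a stricter gate. The arterial value depended on how arterial cells were defined: the cluster led by *Atp13a3* and holding *Bmx*, *Fbln2* and *Gja5* among its leading genes gave 679 CPM in 20 normoxia and 1673 CPM in 13 hypoxia cells, a ratio of 2.46 (1.80 to 3.38). Of the cells of this cluster, 10 of normoxia and 9 of hypoxia were in the general capillary gate. Most of the 23 hypoxia cells of the arterial gate therefore came from other clusters. The *Ntrk2*-led cluster held 171 hypoxia cells with 388 *Edn1* UMIs. Of these cells 151, with 320 UMIs, were in the general capillary gate, and the gates of the others were not counted. Cells called arterial are those of the gate, which can include cells of capillary clusters. Arterial values of all genes are those of the gate unless the cluster is named. The normoxia arterial cells of the gate also carried 448 CPM of the pericyte marker list and the hypoxia ones 14.8 CPM; the part of this in the result was not tested.

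**Figure D2:**
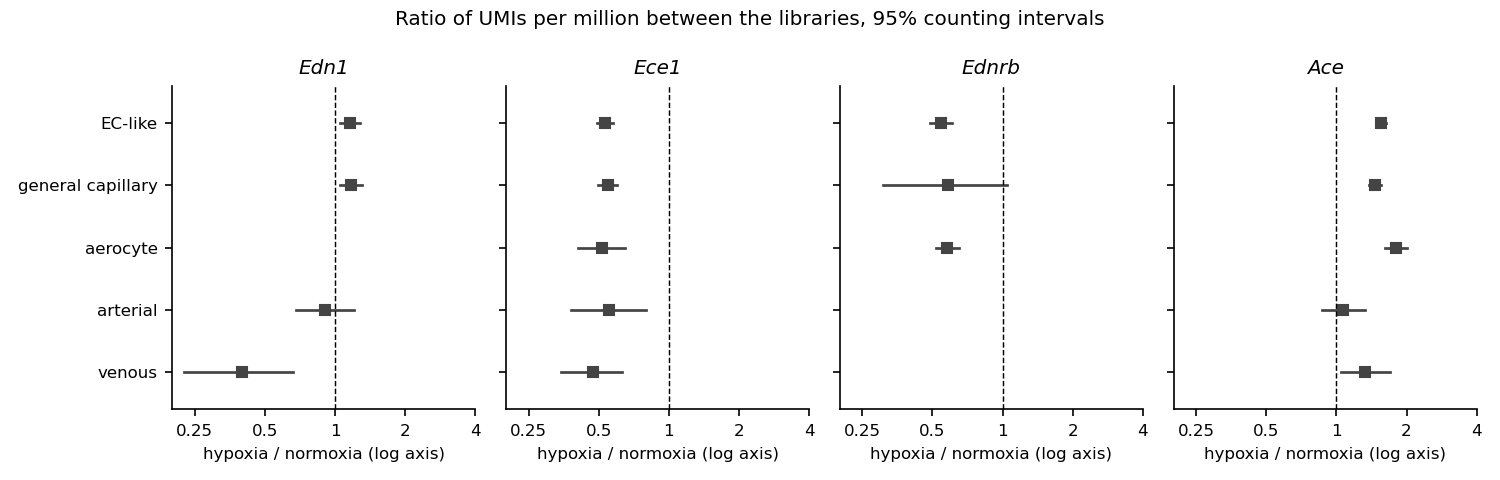
Ratio of CPM between the hypoxia and the normoxia library (log axis) for *Edn1*, *Ece1*, *Ednrb* and *Ace* in EC-like cells and in 4 EC subtypes, as squares with exact conditional 95% counting intervals; groups with under 20 UMIs of a gene are left out. *Ece1* lies between 0.470 and 0.551 in every group shown and *Ace* between 1.07 and 1.81, while *Edn1* ranges from 0.397 in venous to 1.17 in general capillary cells.

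*Ece1*, the enzyme that activates endothelin-1, was lower in the hypoxia library in the 4 EC subtypes other than lymphatic cells. EC-like cells of normoxia had 702 CPM (675 to 730) and those of hypoxia 373 CPM (347 to 400), a ratio of 0.531 (0.489 to 0.576). Venous cells were the highest subtype of the gate in both libraries, though in hypoxia arterial cells were higher by named cluster (570 against 492 CPM). They held 360 UMIs in 61 normoxia and 53 UMIs in 22 hypoxia cells, a ratio of 0.470 (0.346 to 0.629). General capillary cells went from 724 to 395 CPM (0.546, interval 0.496 to 0.602) and arterial cells from 740 to 408 CPM (0.551, interval 0.380 to 0.795). Aerocytes were at 498 and 258 CPM, a ratio of 0.517 (0.409 to 0.648). The intervals of the 4 ratios overlap, and differences between the subtypes were not tested. By named cluster the arterial ratio was 0.734, with an interval of 0.471 to 1.12 that includes 1. Lymphatic cells, with 24 and 3 UMIs, gave 0.565 (0.109 to 1.86).

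The order of *Ece1* over the subtypes was also similar in the libraries. Aerocytes had 0.689 times the general capillary level in normoxia (0.612 to 0.774) and 0.651 times in hypoxia (0.520 to 0.809). Venous cells had 1.38 times in normoxia (1.23 to 1.55) and 1.19 times in hypoxia (0.880 to 1.58), and arterial cells did not differ from general capillary cells beyond counting error in either library (1.02 and 1.03 times). At equal depth the share of general capillary cells with an *Ece1* UMI was 49.7% in normoxia (45.6 to 53.8) and 33.0% in hypoxia (28.1 to 38.1). The share with 3 or more UMIs was 5.56% and 1.42%.

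Outside ECs, *Ece1* was found in alveolar type 1 (AT1)-like cells, at 524 CPM in 47 normoxia cells (401 to 671) and 337 CPM in 12 hypoxia cells (124 to 733). These cells also held EC transcripts, 2347 and 1853 CPM of the 4 named ones. Per 100 UMIs of these EC transcripts, *Ece1* was at 22.3 in normoxia AT1-like cells (17.1 to 28.6) and at 8.23 in EC-like cells (7.91 to 8.56). The hypoxia values were 18.2 (6.67 to 39.6) and 4.20 (3.91 to 4.51). *Ace* in the normoxia AT1-like cells was also above its EC-like value on this measure, and the part of EC RNA in these levels was not tested. Fibroblast-like cells stood at 34.7 CPM in normoxia and, on 3 UMIs, at 35.9 CPM in hypoxia.

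*Ednra*, the contractile endothelin receptor, was a transcript of pericytes and fibroblasts. In the normoxia library the pericyte-like cells had 415 CPM (308 to 548), with a UMI in 19 of 22 cells. The fibroblast-like cells had 310 CPM (273 to 350), with a UMI in 88 of 193 cells. The cluster led by *Hhip*, which had *Acta2* among its leading genes, had 192 CPM in 16 normoxia cells (116 to 301). The intervals of the pericyte-like and fibroblast-like cells overlap, and those of the pericyte-like and *Hhip*-led cells do not.

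Fibroblast-like cells did not share *Ednra* evenly. The cluster led by *Pdgfra* had 383 CPM in 83 normoxia cells, the cluster led by *Dcn* 195 CPM in 14 cells, and the shallow cluster led by *Mfap4* 91.9 CPM in 96 cells. In hypoxia the same clusters held 3, 1 and 30 cells. Pooled over the class, *Ednra* stood at 310 CPM in normoxia against 83.8 CPM in hypoxia, from 7 UMIs, which is a ratio of 0.271 (0.108 to 0.566). Within the *Pdgfra*-led cluster the hypoxia level was 264 CPM, from 5 UMIs in 3 cells, and its ratio to normoxia had an interval of 0.222 to 1.63. The pooled ratio therefore moved together with the makeup of the class, and their parts cannot be told apart with so few hypoxia cells.

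EC-like cells were close to free of *Ednra*. They held 10 UMIs in 852 normoxia cells (2.80 CPM) and 1 UMI in 578 hypoxia cells (0.483 CPM), and the leukocyte cluster held none in 19 and 3 cells, where the limit of 3 counts allows a UMI in up to 15.8% of the normoxia cells. Over all kept cells *Ednra* stood at 66.7 CPM in normoxia and 3.92 CPM in hypoxia. This difference moved with the number of cells that carry the gene: fibroblast-like cells were 14.3% of the normoxia and 4.94% of the hypoxia cells, and pericyte-like cells 1.63% and 0.145%.

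*Ednrb*, the endothelial receptor that clears endothelin-1, marked aerocytes. Normoxia aerocytes had 1862 CPM (1762 to 1966) and hypoxia aerocytes 1077 CPM (975 to 1187). General capillary cells had 19.6 and 11.4 CPM, so that aerocytes had 95.1 times (70.8 to 131) and 94.4 times (57.4 to 167) the general capillary level. The gene was the leading gene of the aerocyte cluster in which *Fibin*, *Apln*, *Chst1* and *Car4* also led, although it had been kept out of the clustering. Arterial, venous and lymphatic cells held 7 *Ednrb* UMIs in the normoxia library and 1 in the hypoxia library.

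Aerocytes of the hypoxia library had less *Ednrb* per UMI, at a ratio of 0.579 (0.517 to 0.647), or 0.635 (0.567 to 0.711) by named clusters. A UMI was found in 111 of 124 normoxia aerocytes (89.5%, interval 82.7 to 94.3) and in 49 of 86 hypoxia aerocytes (57.0%, interval 45.9 to 67.6). These cells differed in depth, with medians of 5809 and 2630 UMIs. They also differed in makeup. The hypoxia aerocytes included 17 cells of the *Trp53inp2*-led cluster, which held 4 *Ednrb* UMIs (163 CPM), against 3 such normoxia cells with 0 UMIs. The part of this makeup in the shares was not tested. At 1000 UMIs per cell the shares were 77.5% (68.6 to 84.9) and 53.3% (40.0 to 66.3), against 1.68% and 1.42% of general capillary cells. The share with 3 or more UMIs was 31.5% and 13.3%. The level was also lower within each of the 2 aerocyte clusters that held at least 10 cells of both libraries: 1906 against 1254 CPM in the deeper one (0.658, interval 0.586 to 0.738) and 1268 against 477 CPM in the shallow one (0.376, interval 0.185 to 0.715). In the leukocyte cluster 0 of 19 normoxia cells had a UMI.

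**Figure D3:**
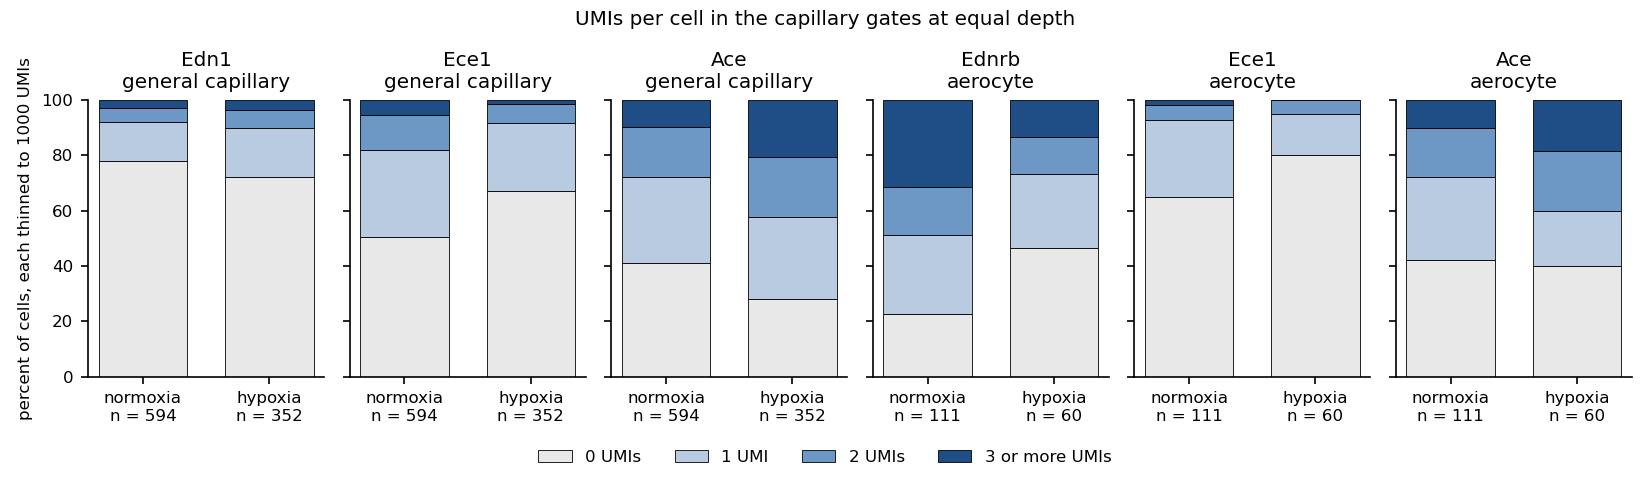
Percent of cells with 0, 1, 2 and 3 or more UMIs of a gene after each cell was thinned to 1000 UMIs, in general capillary cells (594 normoxia and 352 hypoxia) and aerocytes (111 and 60); each bar is 1 library. The share of aerocytes with no *Ednrb* UMI is larger in hypoxia, and so are the shares with no *Ece1* UMI in both cell types, while the share of general capillary cells with 3 or more *Ace* UMIs is 9.76% in normoxia and 20.7% in hypoxia.

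*Ace*, the enzyme that makes angiotensin II, was found across the EC subtypes and was higher in the hypoxia library in capillary cells. EC-like cells of normoxia had 982 CPM (950 to 1015) and those of hypoxia 1521 CPM (1469 to 1575), a ratio of 1.55 (1.48 to 1.63). Aerocytes went from 972 CPM (901 to 1048) to 1760 CPM (1629 to 1899), a ratio of 1.81 (1.62 to 2.02). Lymphatic cells, with 21 and 9 UMIs, gave 1.94 (0.781 to 4.41). General capillary cells went from 1029 to 1509 CPM (1.47, interval 1.38 to 1.56) and venous cells from 653 to 870 CPM (1.33, interval 1.04 to 1.69). Arterial cells, the highest subtype in normoxia, had 1606 and 1720 CPM, a ratio of 1.07 (0.870 to 1.32).

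Levels of *Ace* were also compared between subtypes within each library. In normoxia arterial cells had 1.56 times the general capillary level (1.32 to 1.84), and aerocytes did not differ from general capillary cells beyond counting error (0.945, interval 0.867 to 1.03). In hypoxia aerocytes had 1.17 times the general capillary level (1.07 to 1.27), and the arterial ratio of 1.14 had an interval of 0.991 to 1.31. Venous cells were lower than general capillary cells in both libraries, at 0.635 and 0.576 times. By named cluster arterial cells had 1659 CPM in normoxia and 1967 CPM in hypoxia. Whether the order differed between the libraries was not tested. At 1000 UMIs per cell, 58.9% of normoxia (54.9 to 62.9) and 71.9% of hypoxia general capillary cells (66.9 to 76.5) had an *Ace* UMI, against 57.7% and 60.0% of aerocytes. At 500 UMIs per cell the aerocyte shares were 28.2% and 41.9%. A single hypoxia aerocyte held 49 *Ace* UMIs, and leaving out the cell with the most *Ace* UMIs in each library gave a ratio of 1.54 in EC-like cells.

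Cells outside the EC-like class also had more *Ace* in the hypoxia library, at 181 and 442 CPM, a ratio of 2.44 (1.92 to 3.07). Of the 290 normoxia and 100 hypoxia *Ace* UMIs behind these values, 93 and 61 were in the 2 unnamed shallow clusters. The best marker list of these clusters was the EC list, and they carried 5650 and 6432 CPM of the 4 EC transcripts. EC transcripts also moved with *Ace* in fibroblast-like cells. There *Ace* was at 43.0 CPM in normoxia and 263 CPM in hypoxia, while the 4 EC transcripts were at 299 and 1400 CPM. The makeup of the class differed too. The *Mfap4*-led cluster (96 normoxia and 30 hypoxia cells) held 20 of the 22 hypoxia *Ace* UMIs. Its level was 176 and 341 CPM, a ratio of 1.94 (1.01 to 3.69). The *Pdgfra*-led cluster, with 83 normoxia and 3 hypoxia cells, had 6.86 CPM in normoxia. Per 100 UMIs of these EC transcripts *Ace* was at 14.4 (10.1 to 19.9) and 18.8 (11.8 to 28.5) in fibroblast-like cells and at 11.5 and 17.1 in EC-like cells. The interval of the fibroblast-like cells includes the EC-like value in each library. The normoxia unnamed cells, at 12.1 (9.77 to 14.8), also included it. In other normoxia groups *Ace* per 100 EC transcripts was above the EC-like value, in AT1-like (18.7, interval 14.0 to 24.5), platelet-like (19.6, interval 13.2 to 28.0) and leukocyte cells (35.0, interval 21.7 to 53.5). It was below that value in the *Ndufa4l2*-led cluster (7.87, interval 5.57 to 10.8). The hypoxia intervals of the AT1-like, platelet-like, unnamed and *Ndufa4l2*-led cells, on few UMIs, included the hypoxia EC-like value.

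*Agtr1a*, the main angiotensin II receptor of contractile cells, was rare. The kept cells held 32 UMIs in normoxia and 3 in hypoxia, and 24 of the 32 were in the pericyte-like cells, at 199 CPM (128 to 297) with a UMI in 14 of 22 cells. Removed cells over the gene limit, outside these counts, held 18 UMIs in 34 normoxia cells and 0 in 13 hypoxia cells. The hypoxia pericyte-like cell held 1 UMI. Of all 23 pericyte-like cells 13 had UMIs of both *Ednra* and *Agtr1a* and 1 had neither. The cluster led by *Ndufa4l2*, which carried pericyte and EC transcripts together, held 3 more UMIs (44.3 CPM) in 25 normoxia cells. EC-like cells had 3 and 2 UMIs, or 0.840 and 0.967 CPM, and none of the 19 normoxia cells of the leukocyte cluster had a UMI. A hypoxia ratio in pericytes was not detectable at this depth, with 1 hypoxia cell.

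The ratios of the members were read against all genes with at least 50 UMIs in the same cells. Of the 4 members that reached this minimum in EC-like cells, *Ace* was at least 1.5-fold higher in hypoxia, as were 7.89% of 8734 genes. *Ednrb* and *Ece1* were at least 1.5-fold lower, as were 9.82% of the genes. The median ratio was 0.853 over the 4 members and 1.02 over all genes. *Ece1* was lower than 95.6% of all genes in its ratio and *Ednrb* lower than 95.2%, while 6.49% of genes had a higher ratio than *Ace* and 30.7% a higher one than *Edn1*.

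Among general capillary cells 4 members reached the minimum, with 0 higher and 2 lower (*Ece1* and *Ednrb*) by 1.5-fold, against 9.96% higher and 10.1% lower of 7661 genes. *Ednrb* rests there on 46 and 16 UMIs, and its interval of 0.308 to 1.05 includes 1. Of the 3 members that reached it in aerocytes, *Ace* was higher and *Ednrb* and *Ece1* lower by 1.5-fold, against 8.9% higher and 11.6% lower of 3766 genes. The median ratio of the 3 was 0.579, and that of all genes 1.00.

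General capillary cells were looked at more closely, because the libraries differ in their makeup. Of the 416 hypoxia cells 229 were in clusters with *Ntrk2* among their leading genes, which held 10 normoxia cells. Within the hypoxia library *Edn1* was at 395 CPM in these cells and 420 CPM in the other general capillary cells (ratio 0.939, interval 0.790 to 1.12), and *Ece1* at 399 and 388 CPM (1.03, interval 0.861 to 1.23). *Ace* was at 1592 and 1360 CPM, a ratio of 1.17 (1.07 to 1.28). Without these clusters the hypoxia to normoxia ratio of *Ace* was 1.33 (1.22 to 1.45). Over the 4 clusters with at least 10 general capillary cells of each library, *Ece1* was lower in hypoxia in 4 of 4 and *Ace* higher in 4 of 4, with 2 of the 4 intervals leaving out 1 for each gene, whereas *Edn1* was higher in 2 and lower in 2 with every interval including 1, and its pooled ratio within these clusters was 0.943. The minimum left out the *Hey1*-led cluster, with 171 normoxia and 9 hypoxia cells of the gate. There *Edn1* gave 2.675 (1.77 to 3.92) and *Ece1* 1.055 (0.676 to 1.575). It also left out the *Atp13a3*-led cluster (10 and 9 cells), where *Edn1* gave 2.75 (1.61 to 4.86). In the other left-out clusters of at least 10 such cells, every *Edn1* interval included 1. For *Ace* the left-out *Ntrk2*-led cluster, with 4 normoxia and 151 hypoxia cells of the gate, gave 0.716 (0.510 to 1.04). All other left-out clusters of at least 10 such cells gave *Ace* ratios above 1.

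Immediate-early genes, which respond to dissociation, were lower in the hypoxia library, so general capillary cells were divided into terciles by their summed level. *Ece1* had ratios of 0.567, 0.529 and 0.523 from the lowest to the highest tercile, and *Ace* 1.35, 1.41 and 1.55. Every interval of these ratios left out 1. *Edn1* had 0.990 (0.803 to 1.22), 1.42 (1.18 to 1.70) and 1.04 (0.773 to 1.37), so that its difference between the libraries was seen in the middle tercile. In normoxia the level of *Edn1* was 373, 320 and 349 CPM from the lowest to the highest tercile, with overlapping intervals.

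**Figure D4:**
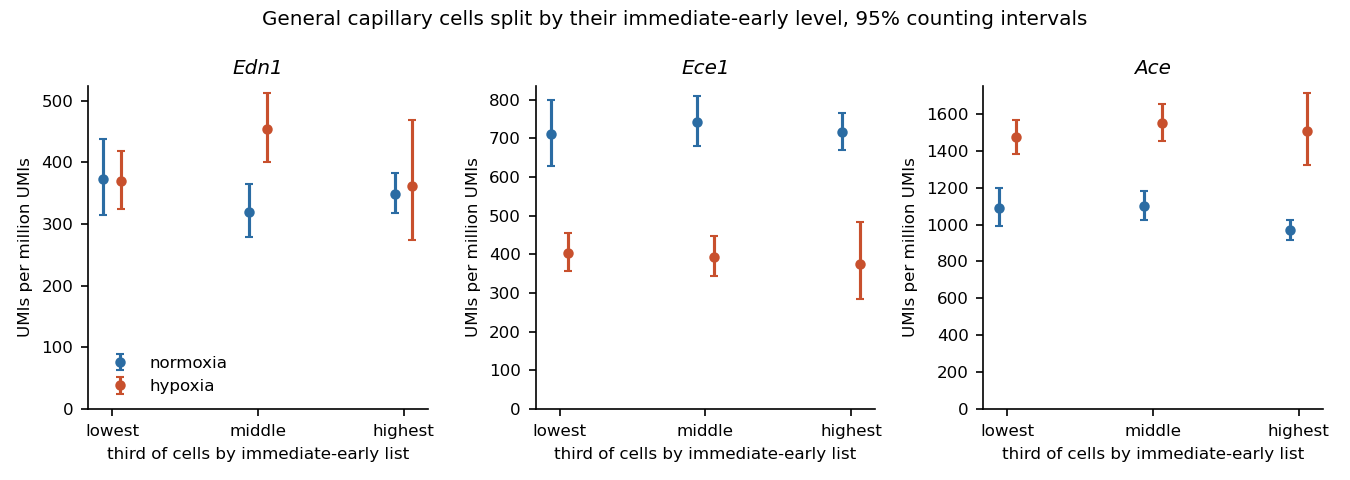
Level of *Edn1*, *Ece1* and *Ace* in CPM in general capillary cells, divided into terciles of cells by the summed level of 18 immediate-early genes, by library, with exact Poisson 95% intervals. *Ece1* is between 375 and 403 CPM in the hypoxia and between 710 and 742 CPM in the normoxia terciles, and the *Ace* intervals of the libraries are apart in each tercile.

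The detection of the EC members was compared cell by cell at 1000 UMIs. Among normoxia general capillary cells *Ece1* was found in 49.6% of 131 cells with an *Edn1* UMI and in 49.7% of 463 cells without one. The hypoxia shares were 37.8% of 98 cells (28.2 to 48.1) and 31.1% of 254 cells (25.5 to 37.2). *Ace* was found in 64.9% of normoxia cells with *Edn1* (56.1 to 73.0) and 57.2% without (52.6 to 61.8), and in 74.5% and 70.9% of hypoxia cells. The intervals overlap in every pair, so at this depth cells with the ligand were not told apart from other general capillary cells by either enzyme.

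The other genes of the pathways were taken from lists of 7 endothelin, 19 angiotensin and 12 Gq coupling genes. Of these 38 genes 6 had no UMI in the kept cells (*Edn2*, *Ece2*, *Kel*, *Ren1*, *Agtr2* and *Cma1*), 8 had under 50 and 24 had at least 50. The substrate and the enzyme that start the angiotensin cascade were thus nearly absent, with 12 UMIs of the angiotensinogen gene *Agt* and none of the renin gene *Ren1*. Of the 22 genes with at least 50 UMIs in EC-like cells 6 had an interval above 1 and 3 below 1, against 18.3% and 15.1% of all genes, and the median ratio was 1.15 against 1.02 over all genes. At least 1.5-fold higher in hypoxia were 2 of the 22 genes, and none was 1.5-fold lower, against 7.89% and 9.82% of all genes.

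*Mme* (neprilysin) and *Enpep* (aminopeptidase A), membrane peptidases that degrade endothelin and angiotensin peptides, were highest in fibroblast-like cells among the groups of at least 20 cells, over both libraries together. *Mme* had 306 UMIs in all kept cells, of which 24 normoxia and 1 hypoxia UMIs were in EC-like cells, and *Enpep* stood at 165 CPM in fibroblast-like and 88.4 CPM in pericyte-like cells. *Edn3*, the ligand that prefers receptor B, had 41 UMIs and was highest in pericyte-like cells at 96.5 CPM. *Prcp*, a lysosomal carboxypeptidase that cuts angiotensin II, was highest in venous cells at 279 CPM, and EC-like cells had 89.6 CPM in normoxia against 162 CPM in hypoxia (1.81, interval 1.55 to 2.11). *Nln* (neurolysin) was at 12.6 and 19.8 CPM in EC-like cells (1.57, interval 1.01 to 2.46).

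The remaining peptidases and processing genes had EC-like ratios nearer to 1. *Ctsa* gave 1.29 (1.08 to 1.55), *Thop1* 1.33 (0.816 to 2.14), *Prep* 0.937 (0.653 to 1.33) and *Lnpep* 0.843 (0.710 to 0.998). *Furin*, a protease that cuts the endothelin precursor, gave 1.18 (0.968 to 1.44), and its relative *Pcsk7* 0.839 (0.620 to 1.13). *Atp6ap2*, the prorenin receptor, gave 1.31 (1.08 to 1.57) and *Agtrap*, which binds the type 1 angiotensin receptor, 0.941 (0.786 to 1.12).

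Genes of the Gq coupling list were measured in EC-like cells as well. *Ednra* and *Agtr1a* signal through Gq, but *Gna12*, *Gna13*, *Arrb1* and *Arrb2* on this list are not Gq genes. *Gnaq* had 376 CPM in normoxia against 279 CPM in hypoxia (0.743, interval 0.672 to 0.819) and *Gna13* at 202 and 143 CPM (0.707, interval 0.615 to 0.811). *Plcb1*, a phospholipase activated by Gq, had 206 and 246 CPM (1.19, interval 1.06 to 1.34) and *Itpr2*, an inositol trisphosphate receptor, 134 and 179 CPM (1.34, interval 1.16 to 1.53). The intervals of the other 8 genes (*Gna11*, *Gna12*, *Arrb1*, *Arrb2*, *Plcb3*, *Plcb4*, *Itpr1* and *Itpr3*) included 1, with ratios from 0.828 to 1.37.

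Genes with a pattern like that of a member were looked for over 16 groups of at least 20 cells, by Pearson correlation of log2 levels among 5773 genes, as a description. The groups share 2 libraries and many share EC RNA. *Ednrb* was closest to *Frrs1* (r = 0.907), *Ccdc68* (0.904) and *Kitl* (0.902), and *Edn1* to *Plcb1* (0.919), *Foxp1* (0.890) and *H2-DMa* (0.883). *Ece1* was closest to *Hpgd* (0.957), *Hecw2* (0.931) and *Ehd4* (0.920), and *Ace* to *H2-D1* (0.961), *Cdh5* (0.958) and *Ly6a* (0.957). *Ednra* was closest to *Ism1* (0.965), *C1qtnf7* (0.960) and *Tbx4* (0.956). *Agtr1a* had too few UMIs for this comparison.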

How the data were processed

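Single-cell RNA of lung cells was captured with the 10x Chromium 3′ v3.1 chemistry in 1 normoxia and 1 hypoxia library. The authors deposited unnormalized UMI counts of each gene in each called cell, aligned to mm10 and counted with Cell Ranger (version 6.1.2 in the matrix header; the study's text names another). Because 3′ reads are counted, levels are not compared between genes.

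Kept were cells in which 200 to 4000 genes were detected and mitochondrial UMIs were 5% or less. No doublet caller was run, and doublets were limited only through the upper gene limit, which the study gives as 4000 in one place and 6000 in another. Counts scaled to 10000 per cell were log-transformed, and 2000 variable genes, without the 6 members and 38 further pathway genes, gave 30 components, 15 neighbours and Leiden clusters at resolution 2 (scanpy 1.11.5, igraph 0.11.9, numpy 2.4.6, scipy 1.17.1, pandas 2.3.3, matplotlib 3.10.9, python 3.11.15), with no batch correction. Clusters were named X-like from marker lists, and 2 shallow clusters (151 normoxia and 47 hypoxia cells) stayed unnamed. Clusters taken as mixed are called by their leading genes. The *Hhip*-led cluster is among them, although the marker lists alone would have named it smooth muscle. EC subtypes were gated per cell: at least 2 arterial, 3 venous or 2 lymphatic markers that are in under 20% of EC-like cells, otherwise the larger of the aerocyte and general capillary list sums with at least 3 UMIs. The gate's thresholds were set after marker UMIs were seen, and 20 normoxia and 28 hypoxia EC-like cells stayed unassigned.

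Levels are UMIs per 1000000 UMIs (CPM) of a group with exact Poisson 95% intervals, ratios have exact conditional binomial intervals, and shares have exact Clopper-Pearson intervals, also after thinning to 1000 UMIs per cell. Where no UMI was found, the level or share that 3 counts would give is used. All cover counting error only. The code of the ratio intervals was tested on simulated Poisson totals of each library, so the test did not cover spread between cells. The members and lists were chosen with earlier results of these data known. Named were all members, other pathway genes with at least 50 UMIs in the kept cells, and for each member with 50 UMIs the 3 genes most correlated in log2(CPM + 10) among those with at least 200 UMIs. *Edn3*, *Agt* and genes without a UMI were named outside this rule. Alternatives covered the cell limits, resolution, EC gate, scaling, thinning depths, subtype definition and the minimum of UMIs.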

Additional observations from a re-analysis of the deposited data

Results flagged for a closer look

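By the marker gate *Edn1* differed in direction between EC subtypes: its hypoxia to normoxia ratio was 1.17 (1.05 to 1.31) in general capillary cells and 0.397 (0.224 to 0.658) in venous cells. Both intervals leave out 1, on opposite sides. By named clusters the general capillary ratio was 1.07 (0.965 to 1.19), which includes 1. Pooled within the 4 clusters with at least 10 general capillary cells of each library it was 0.943. The *Hey1*-led cluster, left out there with 9 hypoxia cells, gave 2.675 (1.77 to 3.92). The general capillary side of this contrast thus depended on the definition and on the clusters compared. The difference between the subtypes was not tested, since each rests on 1 library per condition. The venous value stands on 17 hypoxia UMIs, and 7 of the 61 normoxia venous cells held 73 of their 137 UMIs. After thinning, the shares of venous cells with an *Edn1* UMI were 24.6% in normoxia and 13.6% in hypoxia, with overlapping intervals. The general capillary value was 0.990 in the lowest tercile of the immediate-early level.

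Members were also counted in the cells that the filters removed. In cells over the mitochondrial limit, 835 of normoxia and 107 of hypoxia, the ratio was 2.36 (1.58 to 3.43) for *Edn1* and 2.49 (2.06 to 2.99) for *Ace*. *Ece1* had 0.766 (0.542 to 1.06) and *Ednrb* 0.465 (0.184 to 0.979) there. These cells had no class in the main clustering, and the share of ECs among them was not counted on its own. A separate clustering of all cells without filters gave 1609 normoxia and 727 hypoxia EC-like cells. The main clustering gave 852 and 578.

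In cells over the gene limit, 34 of normoxia and 13 of hypoxia, *Ace* had a ratio of 5.03 (4.18 to 6.07) and *Ednrb* 2.50 (1.91 to 3.27), opposite to its ratio of 0.545 in kept EC-like cells. *Agtr1a* had 18 UMIs in the normoxia cells (28.0 CPM, against 6.19 CPM in the kept ones) and 0 in the hypoxia cells. The aerocyte marker list was at 1966 CPM in these normoxia cells and 5478 CPM in these hypoxia cells, and the 4 EC transcripts at 2587 and 7973 CPM. The general capillary list was at 1450 and 1513 CPM and the fibroblast list at 4738 and 6654 CPM. The pericyte list went the other way, at 2458 CPM in normoxia and 164 CPM in hypoxia. The part of this makeup in the ratios was not tested.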

How the results depend on the processing

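No paired analysis was possible because normoxia and hypoxia are represented by 1 library each. Of 116 values recomputed under alternatives, 96 were counted as unchanged. This means within the 95% counting interval of the reported value, within 1.5 times for shares of genes, or the same highest cell group. The count includes *Ednra* and *Agtr1a* in EC-like cells, whose intervals are wide (0.00398 to 1.21 and 0.0962 to 10.05) and easily met. In EC-like cells the ratio kept its side of 1 under all alternatives run for *Edn1* (1.08 to 1.24), *Ednrb* (0.506 to 0.657), *Ece1* (0.517 to 0.544) and *Ace* (1.45 to 1.65). Outside the interval were *Ednrb* with a limit of 6000 genes (0.620) and without cell filters (0.657), *Ace* without filters (1.65) and thinned to 1000 UMIs (1.45), and *Ednra* at 0 once the hypoxia cell with its only UMI was left out. *Agtr1a*, with 5 EC-like UMIs, ranged from 0.897 to 5.82.

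In arterial cells *Edn1* gave 2.46 by named clusters and 4.19 with 1 more marker UMI required, a gate of 3 normoxia cells and 1 hypoxia cell, in which *Ece1* turned to 1.07 and *Ace* gave 1.93. The following alternatives were chosen after seeing the data. In general capillary cells *Edn1* turned to 0.990 in the lowest tercile of the immediate-early level and gave 1.42 and 1.04 in the middle and highest. *Ace* gave 1.33 without the *Ntrk2*-led clusters and 1.35 in the lowest tercile, and *Ednrb*, on few UMIs, 2.67 in the lowest and 0.240 in the middle tercile.

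Thinning to 500 UMIs turned the difference in the share of general capillary cells with *Edn1* from 5.79 to -0.847 percentage points and moved that of *Ece1* from -16.7 to -9.05. At 2-fold, 2.00% of genes were higher and 3.77% lower. At Leiden resolution 1 no pericyte-like class was formed, so the place of pericytes in the order of *Ednra* and *Agtr1a* could not be recomputed; the other 4 members kept their highest group. Depth limits *Agtr1a*, *Ednra* in hypoxia, and every value in mural and lymphatic cells.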
